A study of Mus musculus with 6 samples.

Results

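The adult heart draws most of its energy from long-chain fatty acids. Lipases and membrane proteins bring them into the cardiomyocyte, acyl-CoA synthetases activate them, and the carnitine shuttle carries them into mitochondria. There each turn of beta-oxidation shortens the chain and passes electrons to the respiratory chain through electron transfer flavoprotein. The genes described here are 35 genes of this route, taken by symbol from a table of 31273 genes and ordered below by step. All 35 were measured, and all 35 were among the 12404 genes tested, those averaging 1 TPM or more (a length-corrected share of all transcripts, on a scale with the same total in every library).

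Polyadenylated RNA came from the left ventricle of mice in 6 libraries. The genotype label was control for 3 of them and cardiomyocyte-specific RBM20 overexpression for the other 3. RBM20 is an RNA-binding protein that regulates splicing in heart muscle, and the study used a tamoxifen-inducible knock-in in cardiomyocytes to ask what more of it does in dilated cardiomyopathy. Neither the age of the mice, nor whether controls carried Cre or received tamoxifen, nor whether each library is a separate animal is stated. P-values measure the spread between these libraries, which may be technical. Control libraries carry cki in their titles and overexpression libraries carry cre, and the genotype labels set the groups.

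Rbm20 itself was at 74.9, 90.9 and 79.5 TPM in control replicates 1 to 3 and at 321, 913 and 907 TPM in overexpression replicates 1 to 3, which follows the labels. Esr1 was at 0.234 to 0.415 TPM in control and at 52.98 to 217.8 TPM in overexpression libraries. Whether these reads came from the endogenous gene or from an inserted construct was not tested. Whatever raised them cannot be told apart from the RBM20 label. The same holds for any difference in Cre or tamoxifen between the groups. Overexpression replicate 1 was the only library with the Y-linked Ddx3y above 0 (88.1 TPM). Xist, the RNA of the inactive X chromosome of females, was at 0.0172 TPM in this library and at 34.4 to 62.6 TPM in the others. These sex markers thus differed within the overexpression group, and the part of sex in the results was not tested. This library also had the lowest Rbm20 of its group, and the lowest value of its group in 29 of the 35 genes. Mitochondrially encoded RNA held 48.3% to 52.0% of TPM in control and 36.7% to 41.05% in overexpression libraries. TPM has a fixed total, so values were also rescaled by median of ratios, in which the typical gene of each library is set to the same level. The median log2 difference over all tested genes was 0.55 in TPM and 0.01 after this rescaling, and the call of a gene is given under both where they differ. Summed TPM of 12 cardiomyocyte markers ranged from 59530 to 67440 in control and from 52160 to 58540 in overexpression libraries. Of these 12, 5 were lower and 3 higher in TPM, and 8 were lower and 0 higher after rescaling. In such bulk tissue, fewer cells of a type and less RNA per cell cannot be told apart. All 12 macrophage markers were higher in TPM (summed TPM 229 to 293 against 574 to 909), and 10 were higher after rescaling. Over all tested genes 9.09% were lower and 59.0% higher in TPM, and 24.0% and 22.2% after rescaling. The part of these shifts in cell markers in the results below was not tested.

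RNA of fatty acid uptake and oxidation was lower in every overexpression library. The 35 genes summed to 19050, 19770 and 19310 TPM in control replicates 1 to 3 and to 9565, 10170 and 10610 TPM in overexpression replicates 1 to 3. That is 1.94% ± 0.0362 of all TPM in control and 1.01% ± 0.0523 with overexpression (SD, n = 3 each). Against the summed cardiomyocyte markers of the same library, which no scaling can alter, the genes stood at 28.2%, 30.7% and 32.4% in control and at 17.1%, 19.5% and 18.1% in overexpression libraries. Both measures separated the groups without overlap.

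Of the 35 genes 29 were lower, 0 were higher and 6 did not pass limma's test at an adjusted p of 0.05 (Benjamini-Hochberg over all 12404 genes). Over all tested genes 9.09% were called lower and 59.0% higher. After rescaling 32 of the 35 were lower and 0 higher, where 24.0% of all genes were lower and 22.2% higher. The 29 genes called in TPM were also those in which all 3 overexpression libraries lay below all 3 control libraries, a pattern found in 10.4% of tested genes, and the opposite order, found in 62.1% of tested genes, held for 0 of the 35. Their log2(TPM + 1) differences ran from -2.21 for Plin5 to -0.31 for Acadl, with adjusted p between 1.35e-05 and 0.0367 in limma. The median over the 35 genes was -1.01 in TPM and -1.63 after rescaling, and 18 genes fell by at least 1 log2 unit in TPM. The size of the change had little relation to abundance: across the 35 genes, which are not independent and share the same libraries, Spearman's rho between control level and log2 difference was -0.16. Without overexpression replicate 1, the library with Ddx3y, 26 genes were lower and 1 (Angptl4) was higher in TPM, and 32 were lower after rescaling. The 6 genes without a call in TPM were Angptl4, Acot2, Acot13, Cpt1a, Eci2 and Ucp3.

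**Figure D1:**
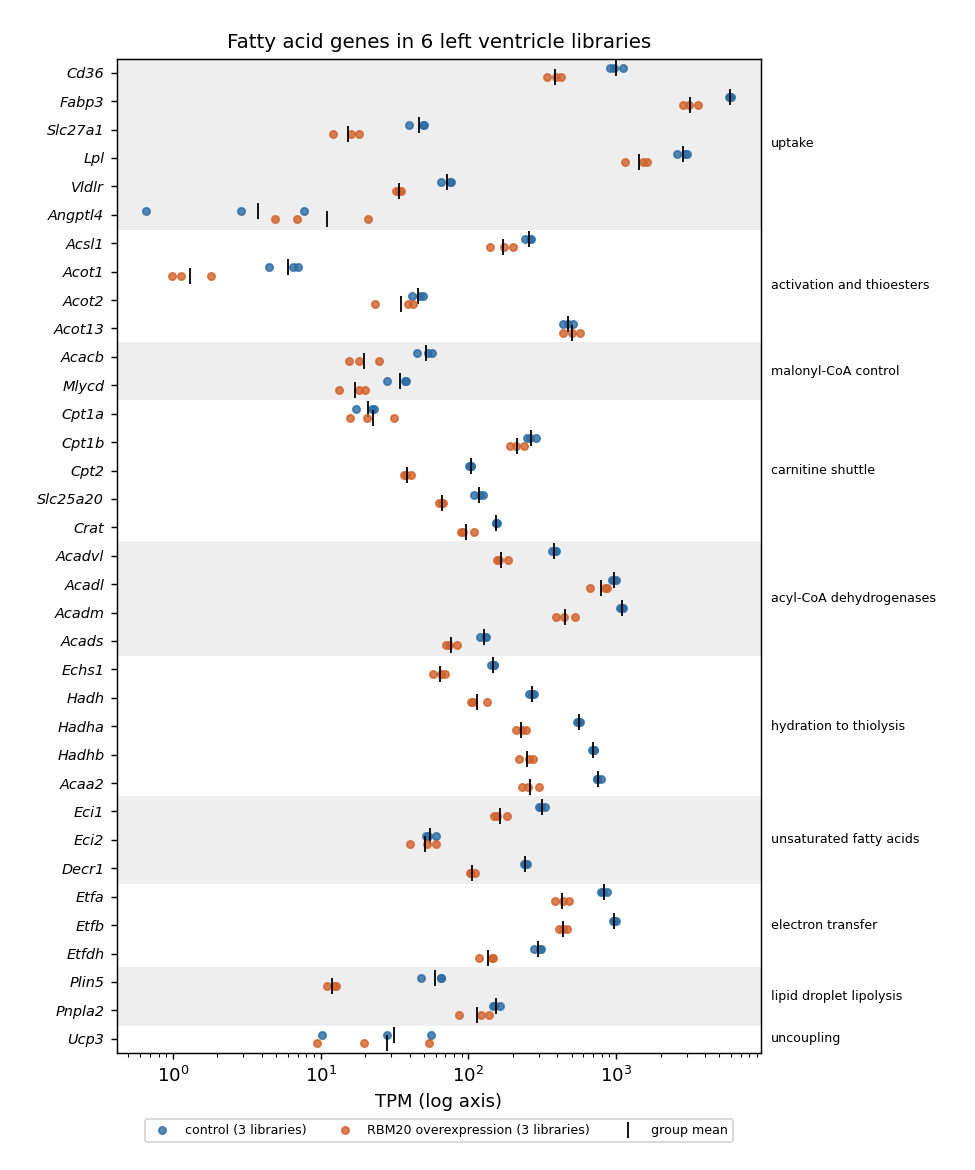
TPM of each fatty acid gene (log axis) in the 3 control libraries (blue) and the 3 RBM20 overexpression libraries (orange), grouped by step, with group means as black bars. In 29 of 35 genes every orange point lies left of every blue point, and Angptl4 and Ucp3 are the genes whose libraries spread most.

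**Figure D2:**
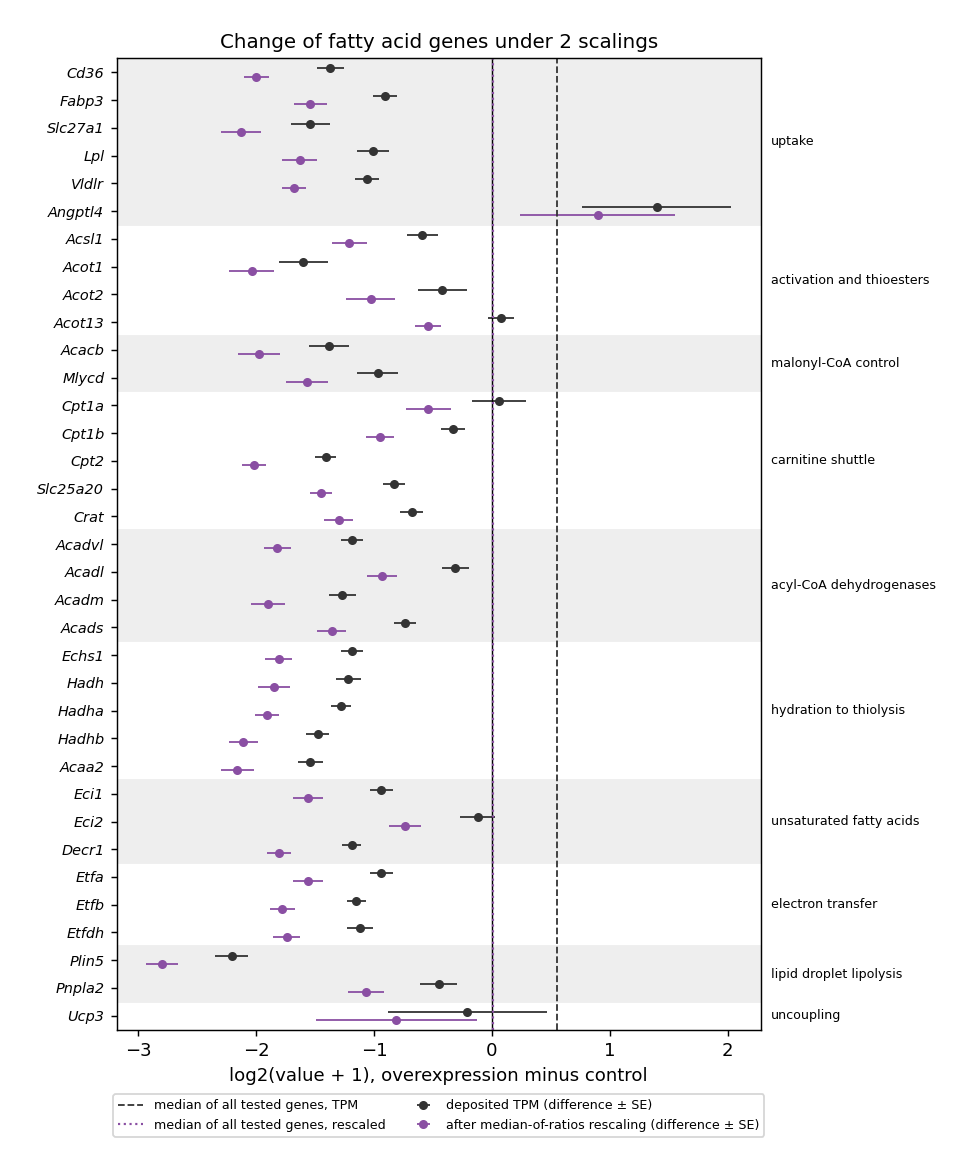
Difference of log2(value + 1), overexpression minus control, with limma's SE, in deposited TPM (black) and after rescaling (purple), for the same genes. Rescaling moves the genes to the left together with the median of all tested genes (dashed at 0.55 in TPM, dotted at 0.01 after rescaling), and Plin5 stands furthest left at -2.21 and -2.80.

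Of the 6 uptake genes 5 fell, from very different levels. Fabp3, the heart fatty acid-binding protein that carries fatty acids through the cytosol, was the most abundant of the 35 genes. It stood at 5826, 5934 and 6022 TPM in control replicates 1 to 3 and at 3563, 2820 and 3114 TPM in overexpression replicates 1 to 3. Its log2 difference was -0.91 (SE 0.103, limma adjusted p = 0.000137). Of the 50-base words of Fabp3 transcripts 29.2% recur in the pseudogene Fabp3-ps1, which was not analysed here, and 19.6% of its exon bases lie opposite exons of other genes. Cd36, the fatty acid translocase of the plasma membrane, was at 907, 1114 and 972 TPM in control and at 339, 423 and 391 TPM in overexpression libraries, 2.59-fold lower. Slc27a1, a fatty acid transport protein, showed the largest fall of this step, from 39.5, 49.9 and 49.6 TPM to 12.1, 16.1 and 18.1 TPM (log2 difference -1.54, SE 0.162, adjusted p = 0.000104). In each of these 3 genes the groups lay well apart, with the lowest control library above the highest overexpression library.

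Lipoprotein lipase (Lpl), which frees fatty acids from circulating lipoproteins at the capillary wall, fell from 2843 ± 229 to 1428 ± 253 TPM (SD, n = 3 each). The very low density lipoprotein receptor gene Vldlr fell in near parallel, from 72.2 ± 5.66 to 33.9 ± 1.29 TPM. The ratio of Vldlr to Lpl stayed between 0.0249 and 0.0259 in control and between 0.0209 and 0.0285 in overexpression libraries, and the groups overlapped. Angptl4, a secreted inhibitor of lipoprotein lipase, did not follow. It was at 0.66, 2.89 and 7.75 TPM in control replicates 1 to 3 and at 4.91, 21.1 and 6.89 TPM in overexpression replicates 1 to 3, with overlapping groups (log2 difference 1.40, SE 0.632, limma adjusted p = 0.0777). Without control replicate 3 it was called higher (adjusted p = 0.0211), and without overexpression replicate 1 likewise (adjusted p = 0.0487). The ratio of Angptl4 to Lpl, in contrast, separated the groups, at 0.000256 to 0.00264 in control and 0.00429 to 0.013 with overexpression, a log2 change of 2.87. That change was 1.99 without control replicate 1 and 3.68 without control replicate 3, and the lowest Angptl4 value rests on an estimated 24 fragments. Endothelial cells also take up fatty acids, and their 12 markers summed to 582 to 735 TPM in control and 755 to 814 TPM with overexpression. Of the 12, 0 were lower and 1 higher in TPM, and 4 were lower and 0 higher after rescaling. Over all tested genes 9.09% were lower and 59.0% higher in TPM, and 24.0% and 22.2% after rescaling. The same count of uptake genes, 5 of 6, was lower after rescaling.

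Of the 4 activation and thioester genes 2 fell in TPM, and all 4 were lower after rescaling. Acsl1, the main long-chain acyl-CoA synthetase of heart muscle, was at 264, 263 and 242 TPM in control and at 140, 174 and 201 TPM in overexpression libraries (log2 difference -0.59, SE 0.13, limma adjusted p = 0.0039). Acot1, a cytosolic acyl-CoA thioesterase that splits acyl-CoA back to free fatty acid, fell from 4.49, 7.04 and 6.495 TPM to 0.983, 1.80 and 1.13 TPM, 4.60-fold lower. Acot2, its mitochondrial counterpart, went from 41.5, 49.0 and 47.2 TPM to 23.4, 42.5 and 39.3 TPM, was not called in TPM (adjusted p = 0.0976) and was called lower after rescaling (log2 difference -1.03, adjusted p = 0.00443). Acot13, another thioesterase, held at 475 ± 35.2 and 505 ± 65.2 TPM (SD, n = 3 each; log2 difference 0.08 in TPM, adjusted p = 0.52, and -0.54 after rescaling, adjusted p = 0.00505). The ratio of Acot2 to Acot1 was 6.96 to 9.26 in control and 23.6 to 34.8 with overexpression. Acot1 and Acot2 are neighbouring genes on chromosome 12 with similar sequences: 24.5% of the 50-base words in Acot2 transcripts also occur in Acot1 transcripts, so reads between them may have been shared or dropped. The lowest Acot1 value rests on an estimated 37 fragments.

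Both genes that set the level of malonyl-CoA, the inhibitor of mitochondrial fatty acid entry, fell. Acacb, the acetyl-CoA carboxylase that makes malonyl-CoA at the mitochondrial surface, went from 45.0, 56.8 and 53.4 TPM to 24.7, 15.6 and 18.3 TPM (log2 difference -1.38, SE 0.169, limma adjusted p = 0.000206). Mlycd, the decarboxylase that removes malonyl-CoA, went from 28.4, 38.0 and 37.1 TPM to 13.3, 18.3 and 19.9 TPM (log2 difference -0.97, SE 0.174, adjusted p = 0.0013). The groups did not overlap in either gene. Their ratio did overlap, at 1.44 to 1.59 in control and 1.86, 0.855 and 0.921 in overexpression replicates 1 to 3. Overexpression replicate 1 was the library with the most Acacb and the least Mlycd of its group.

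Of the 5 carnitine shuttle genes 4 fell, by unequal amounts. Cpt1b, the muscle form of carnitine palmitoyltransferase 1 and the gate of the route on the outer mitochondrial membrane, was at 262, 287 and 251 TPM in control and at 191, 209 and 239 TPM in overexpression libraries. Its log2 difference of -0.33 (SE 0.104, limma adjusted p = 0.0212) was no longer called without control replicate 2 (adjusted p = 0.084), overexpression replicate 1 (0.0597) or overexpression replicate 2 (0.058), or in limma without the trend (0.0519). Cpt2, the enzyme of the inner membrane that rebuilds acyl-CoA in the matrix, fell much further, from 105, 105 and 101 TPM to 36.8, 38.0 and 40.7 TPM (log2 difference -1.41, SE 0.0874, adjusted p = 1.35e-05). The ratio of Cpt1b to Cpt2 moved from 2.49 to 2.74 in control to 5.19 to 5.87 in overexpression libraries, a log2 change of 1.10. In GENCODE M21 the read-through gene Gm44502 holds 78.6% of the 50-base words of Cpt1b transcripts, so the level of Cpt1b depends on how such reads were assigned. Gm44502 was not analysed here.

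Cpt1a, the form that dominates in liver, was at 17.3, 23.0 and 22.4 TPM in control and at 20.5, 31.2 and 15.9 TPM in overexpression libraries, which span the whole control range. It was not called in TPM (log2 difference 0.06, limma adjusted p = 0.82) or after rescaling (-0.54, adjusted p = 0.0517). Cpt1a held 7.25% ± 1.01 of the summed TPM of Cpt1a, Cpt1b and Cpt1c in control and 9.58% ± 3.37 in overexpression libraries (SD, n = 3 each), with overlap, so the muscle form remained the main transcript in every library. Slc25a20, the carrier that exchanges acylcarnitine for carnitine across the inner membrane, fell 1.79-fold to 65.9 ± 2.05 TPM. Crat, the carnitine acetyltransferase that buffers short acyl groups, fell 1.60-fold to 96.5 ± 10.6 TPM (SD, n = 3 each).

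The acyl-CoA dehydrogenases, which catalyse the opening step of each turn for different chain lengths, did not fall alike. Acadvl (very long chains) went from 387, 390 and 368 TPM to 155, 161 and 186 TPM. Acadm (medium chains) went from 1104, 1109 and 1056 TPM to 391, 446 and 527 TPM, the largest fall of this step (log2 difference -1.27, SE 0.112, limma adjusted p = 4.92e-05). Acads (short chains) fell 1.67-fold, from 127 ± 5.53 to 75.9 ± 6.59 TPM (SD, n = 3 each). Acadl, named for long chains, fell least, from 973, 1006 and 934 TPM to 663, 842 and 865 TPM.

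For Acadl the log2 difference was -0.31 (SE 0.112, limma adjusted p = 0.0367). That call was lost without control replicate 1, 2 or 3 (adjusted p = 0.0722, 0.107 and 0.0608) or overexpression replicate 1 (0.0789). It was also lost under quantile normalization (0.0533), with no filter on low values (0.084) and in limma without the trend (0.0778), whereas after rescaling it stood at -0.93 (adjusted p = 0.000719). Within the summed TPM of these 4 genes, Acadl went from 37.8% ± 0.46 to 53.1% ± 2.03 and Acadm moved from 42.4% ± 0.17 to 30.5% ± 1.18 (SD, n = 3 each). The most abundant dehydrogenase transcript was Acadm in all 3 control libraries and Acadl in all 3 overexpression libraries. The ratio of Acadvl to Acads was 2.81 to 3.24 in control and 2.11 to 2.27 with overexpression. Of Acadvl's exon bases 42.9% lie opposite exons of Dvl2, which was itself low, as given by its TPM of 1.02 to 3.32.

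All 5 genes of the later reactions of the spiral fell. They summed to 2432 ± 40.8 TPM in control libraries and 921 ± 98.6 TPM with overexpression, a ratio of 0.379 (SD, n = 3 each), the lowest such ratio of summed TPM among the steps. The median log2 difference of these genes was -1.28, against -1.33 for the 2 lipid droplet genes. Acaa2, the thiolase that releases acetyl-CoA, went from 791, 747 and 740 TPM to 232, 252 and 301 TPM (log2 difference -1.54, SE 0.106, limma adjusted p = 1.79e-05). Echs1, the short-chain enoyl-CoA hydratase, went from 148, 142 and 149 TPM to 57.5, 65.1 and 69.1 TPM, and Hadh, the hydroxyacyl-CoA dehydrogenase, fell 2.34-fold to 115 ± 15.6 TPM. Each of these genes separated the groups by more than the range within either group.

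Hadha and Hadhb encode the alpha and beta subunits of the mitochondrial trifunctional protein, which handles long chains, and lie head to head on chromosome 5. Hadha was at 557, 570 and 545 TPM in control and at 211, 232 and 244 TPM in overexpression libraries. Hadhb was at 705, 686 and 711 TPM in control and at 221, 256 and 276 TPM in overexpression libraries. Their log2 differences were -1.28 (SE 0.0837) and -1.48 (SE 0.0966). The subunit ratio of Hadha to Hadhb was 0.766 to 0.831 in control and 0.885 to 0.957 with overexpression, without overlap. Of the 50-base words of Hadhb transcripts 18.1% recur in the processed pseudogene Gm13910, which was not analysed here.

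Sequences before the gene starts are shown for the gene that fell most (Plin5), for the dehydrogenases that fell most and least (Acadm and Acadl) and for the stretch that separates Hadha from Hadhb. They are RefSeq sequence of GRCm38.p6, read 5′ to 3′ on the strand of the gene (the plus strand, that of Hadhb, for the last), and hold only bases outside GENCODE M21 exons. Capitals mark AGGTCA in either direction, the half-site bound by nuclear receptors of the PPAR, RXR and ERR kind. Acadm is read from chr3:153944644-153944893, Acadl from chr1:66863310-66863559, Plin5 from chr17:56117597-56117798 and the Hadha to Hadhb stretch from chr5:30155163-30155247.
Acadm: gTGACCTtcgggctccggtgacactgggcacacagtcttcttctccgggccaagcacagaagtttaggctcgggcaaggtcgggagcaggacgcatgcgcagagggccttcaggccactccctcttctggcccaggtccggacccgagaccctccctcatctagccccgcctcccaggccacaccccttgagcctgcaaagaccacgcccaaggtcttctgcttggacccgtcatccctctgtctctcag
Acadl: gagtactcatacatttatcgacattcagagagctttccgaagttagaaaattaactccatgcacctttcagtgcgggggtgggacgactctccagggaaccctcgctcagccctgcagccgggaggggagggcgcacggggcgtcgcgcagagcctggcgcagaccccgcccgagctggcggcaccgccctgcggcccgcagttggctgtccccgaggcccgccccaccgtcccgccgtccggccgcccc
Plin5: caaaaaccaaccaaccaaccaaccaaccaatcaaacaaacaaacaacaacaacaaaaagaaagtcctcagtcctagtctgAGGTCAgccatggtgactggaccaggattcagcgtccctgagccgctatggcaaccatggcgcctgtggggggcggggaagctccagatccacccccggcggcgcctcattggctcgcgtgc
Hadha to Hadhb: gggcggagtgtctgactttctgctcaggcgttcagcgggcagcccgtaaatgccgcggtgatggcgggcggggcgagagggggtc

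The Hadha to Hadhb stretch is 85 bases long. Acadm and Plin5 each held 1 half-site in the bases shown, and Acadl and the Hadha to Hadhb stretch held 0. In windows from 250 bases before to 50 bases after a start, searched on both strands, AGGTCA occurred in 9 of the 33 windows of the 28 genes matched (27.27%) and in 16.26% of all 32851 windows. The longer TNAAGGTCA, which contains the half-site and is the element of ERR receptors, occurred in 0 of the 33 and in 1.28% of all windows. The direct repeat AGGTCANAGGTCA occurred in 0 of the 33 and in 0.04% of all windows. Such matches describe letters in these windows and no binding was measured.

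Genes for unsaturated fatty acids, which move or remove double bonds so that the spiral can go on, were mixed. Decr1, the dienoyl-CoA reductase, went from 250, 243 and 237 TPM to 105, 102 and 112 TPM (log2 difference -1.19, SE 0.0801, limma adjusted p = 1.72e-05). Eci1, an enoyl-CoA isomerase of mitochondria, fell 1.92-fold to 163 ± 17.4 TPM (SD, n = 3). Eci2, an isomerase also found in peroxisomes, was at 53.4, 60.3 and 52.0 TPM in control and at 40.3, 60.6 and 52.9 TPM in overexpression libraries. These groups overlapped (log2 difference -0.12, SE 0.15, adjusted p = 0.483), and Eci2 was called lower after rescaling (-0.74, adjusted p = 0.00329).

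All 3 electron transfer genes fell. Etfb, the beta subunit of electron transfer flavoprotein, went from 996, 960 and 965 TPM to 410, 439 and 464 TPM (log2 difference -1.15, SE 0.0803, limma adjusted p = 1.85e-05). Etfa, the alpha subunit, went from 871, 812 and 791 TPM to 385, 434 and 477 TPM (-0.94, SE 0.098, adjusted p = 9.96e-05). Etfdh, which hands the electrons to ubiquinone, went from 304, 311 and 277 TPM to 118, 144 and 147 TPM. The ratio of Etfa to Etfb was 0.82 to 0.874 in control and 0.939 to 1.03 with overexpression, without overlap. Of the 50-base words of Etfb transcripts 43.8% also belong to the overlapping gene Gm45233 of GENCODE M21, which was not analysed here.

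Plin5, a coat protein that ties lipid droplets to mitochondria in oxidative tissue, fell most of all 35 genes. It was at 48.2, 64.8 and 65.1 TPM in control and at 11.02, 12.6 and 12.2 TPM in overexpression libraries, 4.96-fold lower (log2 difference -2.21, SE 0.14, limma adjusted p = 1.42e-05). Plin5 (ENSMUSG00000011305.11) occupies bases 56111601 to 56117596 of chromosome 17, minus strand, in GRCm38 (GENCODE M21). Pnpla2, the triglyceride lipase whose access to droplets perilipins regulate, was at 148, 164 and 152 TPM in control and at 86.5, 137 and 121 TPM in overexpression libraries. Its log2 difference of -0.45 (adjusted p = 0.0318) was not called without control replicate 2 (adjusted p = 0.0858), control replicate 3 (0.0706) or overexpression replicate 1 (0.0502), with no filter on low values (0.0718) or in limma without the trend (0.0545). The ratio of Plin5 to Pnpla2 was 0.326 to 0.429 in control and 0.0922 to 0.127 with overexpression. Fat cells also hold these genes. Their markers Adipoq and Plin1 were at 0.219 to 1.23 TPM and at 0.0353 to 0.41 TPM over all 6 libraries, and Lep was at 0 in 3 of them. All 9 adipocyte markers measured summed to 21.6 to 46.1 TPM in control and to 40.0 to 65.5 TPM in overexpression libraries, with overlap. Most of that sum was Thrsp (15.2 to 25.2 TPM against 35.2 to 46.8 TPM), whereas Aqp7 had a mean of 10.1 TPM in control and 3.45 TPM with overexpression and was called lower after rescaling. The part of fat cells in these values was not tested.

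Ucp3, a mitochondrial carrier of muscle that rises when fatty acids are abundant, varied more within groups than between them. It was at 10.2, 28.3 and 56.1 TPM in control replicates 1 to 3 and at 9.46, 54.5 and 19.8 TPM in overexpression replicates 1 to 3 (log2 difference -0.21, SE 0.676, limma adjusted p = 0.79). In both groups the library with most Ucp3 was also the one with most Angptl4, and the library with least Ucp3 had least Angptl4. Their coefficients of variation in control were 73.2% and 96.2%, against a median of 5.3% over the 35 genes. With overexpression the median was 11.9%.

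**Figure D3:**
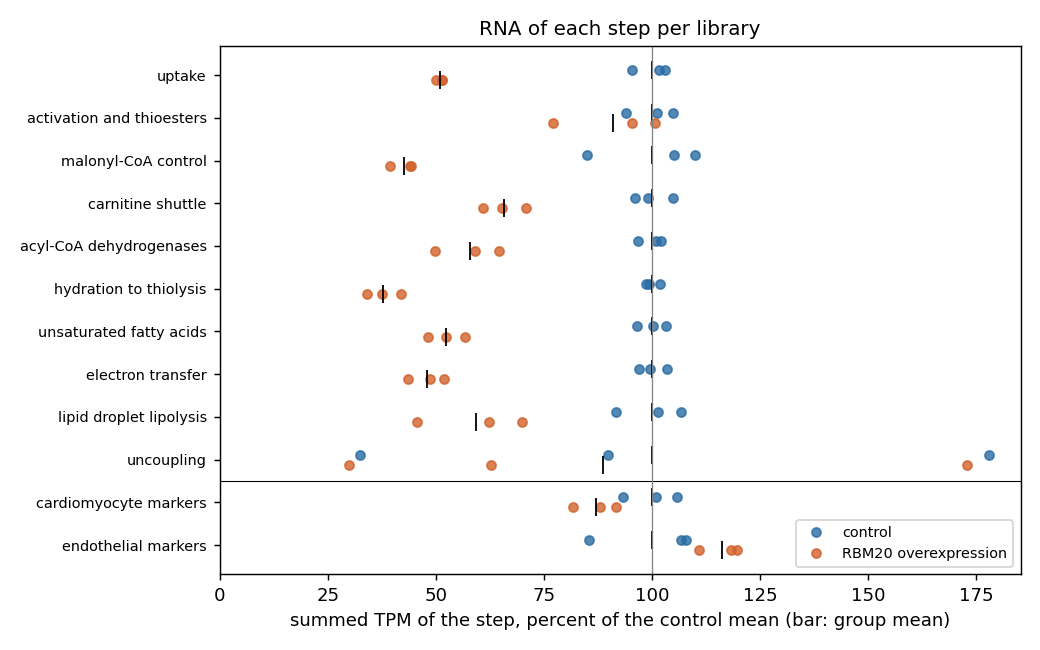
Summed TPM of the genes of each step in each library, as percent of the control mean of that step, for control (blue) and RBM20 overexpression (orange), with 12 cardiomyocyte and 12 endothelial markers below the line. Hydration to thiolysis lies lowest with overexpression, while activation and thioesters overlap with control and uncoupling (Ucp3 alone) spreads in both groups.

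Ratios between genes of the same library do not move with any scaling, and 11 pairs were set side by side. The groups did not overlap in 7 of them: Hadha to Hadhb, Etfa to Etfb, Angptl4 to Lpl, Plin5 to Pnpla2, Cpt1b to Cpt2, Acadvl to Acads and Acot2 to Acot1. For each of these 7 the two-sided p was 0.1 by exact permutation, which 3 libraries against 3 cannot go below (0.157 adjusted over the 11 pairs), so none could pass 0.05. The other 4, Cpt1a to Cpt1b, Acacb to Mlycd, Cd36 to Slc27a1 and Vldlr to Lpl, overlapped (exact permutation p = 0.3 to 0.7). Separation was common in these data. Among all tested genes taken singly, overexpression libraries all lay below control in 10.4% and all above in 62.1% in TPM. After rescaling these shares were 28.7% and 28.3%. The share over all gene pairs was not computed, so the count of 7 has no such background and is not a result about these pairs.

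**Figure D4:**
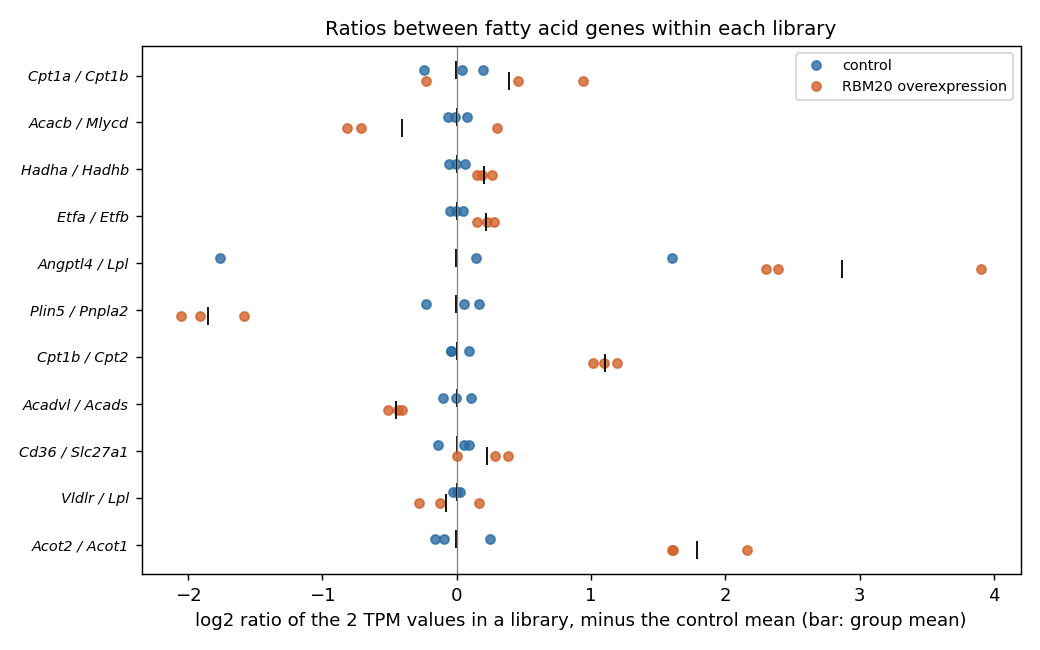
Log2 ratio of the TPM of 2 fatty acid genes within each library, minus the control mean of that ratio, for 11 pairs in control (blue) and RBM20 overexpression (orange). Cpt1b to Cpt2 and Acot2 to Acot1 moved up by 1.10 and 1.79, Plin5 to Pnpla2 moved down by 1.85, and 4 pairs overlap between groups.

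Outside the 35 genes, other genes of mitochondrial oxidation fell too. The further lists had higher and lower members. Counts below are to be read beside the shares of all tested genes. These were 9.09% lower and 59.0% higher in TPM, and 24.0% lower and 22.2% higher after rescaling. A broad list of mitochondrial oxidation and related genes, not all of them oxidation enzymes, had 19 tested. Of these 13 were lower and 0 higher in TPM, and 18 were lower after rescaling. Ech1, the dienoyl-CoA isomerase, fell from 1271 ± 58.5 to 422 ± 56.5 TPM, and Pcca, a subunit of propionyl-CoA carboxylase, from 58.6 ± 3.22 to 22.6 ± 1.89 TPM (SD, n = 3 each). Of 8 other uptake and binding genes 1 was lower (Lmf1, a lipase maturation factor, 1.57-fold) and 4 were higher, with 3 lower and 2 higher after rescaling. The endocytic receptor gene Lrp1 rose 2.18-fold and was also called higher after rescaling.

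Of 13 other activation and thioesterase genes 3 were lower and 5 higher in TPM, and 6 were lower and 4 higher after rescaling. Acsl4, a synthetase that prefers arachidonic acid, rose from 9.40 ± 1.14 to 26.1 ± 0.807 TPM, and the thioesterase gene Acot9 from 29.4 ± 3.87 to 93.4 ± 17.8 TPM. Acss1, the mitochondrial acetyl-CoA synthetase, fell 1.99-fold and Acot11 2.26-fold. Of 6 other malonyl-CoA and carnitine genes 2 were lower and 2 higher in TPM, and 3 were lower and 2 higher after rescaling. Crot, the peroxisomal carnitine octanoyltransferase, fell 2.47-fold and Slc22a5, the carnitine transporter of the plasma membrane, 1.35-fold. Fasn and Acaca, the enzymes of fatty acid synthesis, rose 4.17-fold and 2.24-fold, to 11.97 ± 1.18 and 6.15 ± 0.132 TPM (SD, n = 3 each), both also after rescaling. Of 20 triglyceride storage and turnover genes 4 were lower and 5 higher in TPM, and 13 lower and 2 higher after rescaling. Dgat2, which makes triglyceride, fell from 247 ± 16.7 to 108 ± 6.73 TPM and Fitm1 1.73-fold, while the droplet coat gene Plin2 rose from 36.4 ± 6.73 to 80.9 ± 18.9 TPM and Lpin2 2.57-fold.

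Within families, the make-up of the transcripts differed between groups, in shares that no scaling of a library can alter. These families were chosen after the values were seen and were not tested. Acsl1 held 92.3% to 92.8% of the summed TPM of 5 long-chain acyl-CoA synthetase genes in control and 74.4% to 81.8% in overexpression libraries, where Acsl4 held 10.8% to 13.4% and Acsl5 4.61% to 7.72%. Slc27a1 went from 87.4% ± 1.58 to 56.8% ± 4.61 of 4 transport protein genes, and Slc27a4 from 11.1% ± 1.46 to 36.4% ± 4.42. Slc27a4 itself was called higher in TPM (log2 difference 0.65, limma adjusted p = 0.0102) and not after rescaling (0.10, adjusted p = 0.628). Plin5 went from 24.1% ± 1.12 to 5.89% ± 0.733 of 4 perilipin genes, and Plin2 from 14.7% ± 1.11 to 39.1% ± 4.07. Acaca, the carboxylase of fatty acid synthesis in the cytosol, went from 5.06% ± 0.555 to 24.4% ± 4.17 of the sum of Acaca and Acacb (SD, n = 3 each). The groups did not overlap in any of the shares just given. The shares of Plin3 and Plin4 among the perilipins overlapped, as did those of Acads, Cpt1a and Cpt1b in their families. How often shares separate in other families was not computed. After rescaling, 10 of 12 macrophage markers were higher and 0 lower in the same libraries. Of 11 fibroblast markers 8 were higher and 1 lower in TPM. After rescaling 6 were higher and 3 lower (Dcn, Dpt and Gsn), with Pdgfra and Tcf21 not called. What part RNA of those cells has in these shares was not tested.

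**Figure D5:**
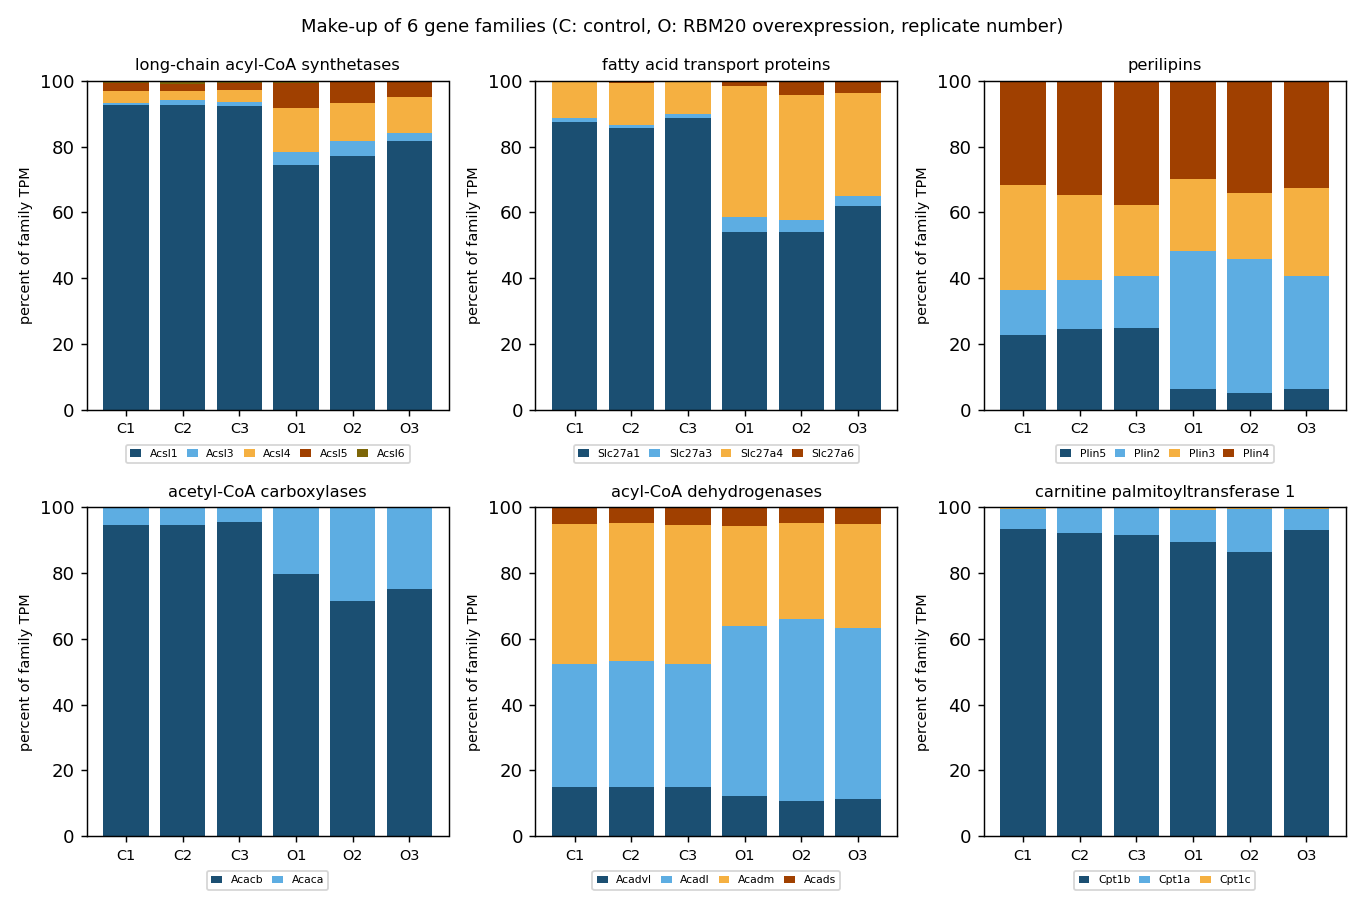
Share of each gene in the summed TPM of its family, per library, for 6 families (C: control, O: RBM20 overexpression, with the replicate number). Acsl1, Slc27a1, Plin5, Acacb and Acadm hold smaller shares in O1 to O3 than in C1 to C3, and the shares of Cpt1a and Cpt1b overlap between groups.

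Among the known regulators of these genes, Ppargc1a, a coactivator of PPAR and ERR receptors, was at 104, 335 and 416 TPM in control and at 21.6, 10.3 and 21.6 TPM in overexpression libraries, and the receptor gene Rxrg fell from 35.6 ± 2.64 to 13.8 ± 4.47 TPM. Ppard and Prkaa1 rose 1.72-fold and 1.82-fold in TPM and were not called after rescaling. Of 16 regulators tested 6 were lower and 4 higher in TPM, and 11 were lower and 0 higher after rescaling. The shares of all tested genes were 9.09% lower and 59.0% higher in TPM, and 24.0% and 22.2% after rescaling. Among 7 further genes listed under a response to fasting or fatty acids, 4 were lower and 1 higher in TPM, and 6 were lower after rescaling. No such response was measured here. Slc25a34, a mitochondrial carrier, fell 7.25-fold to 14.7 ± 2.38 TPM and Ces1d, a carboxylesterase with lipase activity, 8.90-fold to 8.45 ± 3.44 TPM (SD, n = 3 each). Ucp2 rose 1.71-fold in TPM only.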

How the data were processed

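The authors deposited 1 table of TPM per gene symbol and library, in which every library has nearly the same total. GATK 4.2.6.1, STAR-Fusion, edgeR 3.40.2, featureCounts 2.0.3 and a genome build mm8 were used, without roles, per the submitters' processing notes. Aligner, annotation and strand setting: not given in the sources used here.

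The 12404 genes averaging 1 TPM or more were tested on log2(TPM + 1) by limma 3.58.1 under R 4.3.3 (trended variance, two-sided, Benjamini-Hochberg, threshold 0.05). This scale understates changes of low genes. A fold, where given, divides 1 group's mean TPM by the other's. Rescaling factors were 0.783 to 0.848 in control and 1.16 to 1.34 with overexpression.

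Columns were matched to samples by group word and title number. No label gives a batch or a pairing. Gene positions and transcript words are from GENCODE M21 (GRCm38), whose build may differ from the authors' and which entered no test. Depth was estimated from the TPM worth of the lowest step times gene length, at 20820000 to 45020000 fragments per library, known up to a whole factor. The lowest estimate for any of the 35 genes was 24 fragments (Angptl4).

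The 35 genes and all gene lists were chosen with earlier results of these data known. Every one of the 35 is described by step, and those with the largest change of a step or another direction get each library's value. Of the other lists, the 2 called genes with the smallest p in each direction are named, except 1 that is not reported here. Of those lists, 78 of 81 lipid genes were measured and 66 tested. Alternatives were other scalings, pseudocounts, filters and limma settings, and leaving out each library. In simulated libraries of 11696 genes, overexpression against control, 96% of genes raised 2-fold and 100% of genes lowered 2-fold were recovered. Of 216 calls 18 were of unchanged genes. Every simulated gene had the same spread (log SD 0.15), and 50 genes were changed at each fold. Real genes spread unequally and far more of them were called, so these rates do not carry over to them. Python 3.11.15 (pandas 2.3.3, numpy 2.4.6, matplotlib 3.10.9) made the summaries and plots.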

Additional observations from a re-analysis of the deposited data

How the results depend on the processing

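Of the 35 genes, 26 kept their direction and their side of the threshold under all of the alternatives run. The count of lower genes among the 35 was 26 to 32 over the settings that kept all libraries, 26 to 29 with a library left out and 32 to 33 with a library left out after rescaling. The count of higher genes was 0 in all of them except 1 (Angptl4) without control replicate 3 or overexpression replicate 1. The median log2 difference of the 35 genes, -1.006 in TPM, was -1.633 after rescaling, -1.291 without mitochondrially encoded genes and -1.287 under quantile normalization, and ran from -1.104 to -0.963 in TPM and from -1.73 to -1.594 rescaled with a library left out. Over all tested genes, 1127 lower and 7316 higher in TPM, the counts were 2974 and 2756 after rescaling. They were 2816 and 2963 under quantile normalization, and 1796 were lower without mitochondrially encoded genes. With a library left out 950 to 1088 were lower and 6198 to 7212 higher in TPM, against 2369 to 2839 and 2045 to 2639 rescaled.

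The sign of Acot13 turned after rescaling (-0.542), without mitochondrially encoded genes (-0.201) and under quantile normalization (-0.055), and with a library left out it ran from -0.008 to 0.179 in TPM and from -0.595 to -0.439 rescaled. The sign of Cpt1a turned under the same settings (-0.538, -0.216 and -0.477), with -0.192 to 0.275 in TPM and -0.728 to -0.372 rescaled when a library was left out. With a library left out Eci2 ran from -0.251 to 0.037 in TPM (down to -0.816 rescaled) and Ucp3 from -0.849 to 0.355 (down to -1.435 rescaled). The log2 change of the ratio of Vldlr to Lpl ran from -0.204 to 0.02 with a library left out. That of Acot2 to Acot1 was 1.18 with 1 TPM added to both values, against 1.793 without, since adding a constant shrinks ratios of low values. The causes of the other changes were not tested. No paired analysis was possible because the labels give the groups no shared replicate numbers. Depth limits mainly Angptl4 and Acot1, the lowest of the 35 genes.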
